A study of Homo sapiens with 4 samples.

Results

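YAP and TAZ are transcriptional coactivators that bind the TEAD DNA-binding proteins, and 10 genes of this system were followed across 4 arrays of SCP2 cells. The genes were the coactivators YAP1 and WWTR1 (which encodes TAZ), their partner TEAD1, the inhibitory kinase LATS2, the scaffolds AMOTL1 and AMOTL2, and CCN1, CCN2, ANKRD1 and AXL, which are known as targets. They were chosen by name, as every probe set whose annotated symbol was exactly one of the 10, which gave 24 of the 54675 probe sets and 10 of the 19775 genes with a symbol of their own. LATS2, AMOTL1 and AMOTL2 had 4, 4 and 1 probe sets, YAP1, WWTR1 and TEAD1 had 3 each, CCN1 and AXL had 2 each, and CCN2 and ANKRD1 had 1 each.

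SCP2 is a bone-tropic subline of the MDA-MB-231 human breast cancer line. Cells labelled as overexpressing DLC1 were profiled with TGF-beta and without it, and vector control cells were profiled with TGF-beta and without it, on 1 array for each of the 4 groups. No label gives the dose or duration of TGF-beta, the vector backbone or the number of clones behind each line. DLC1 is known as a tumour suppressor gene, and the study's title concerns suppression of bone metastasis by DLC1.

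In the Hippo pathway the kinases MST and LATS phosphorylate YAP and TAZ, which are then held in the cytoplasm or degraded. When this brake is released, YAP and TAZ enter the nucleus and activate genes through TEAD proteins. Tension of the actin cytoskeleton is known to favour nuclear YAP and TAZ, and the CCN genes are widely used read-outs, while LATS2 and AMOTL2 are targets that feed back as inhibitors. TGF-beta acts through SMAD proteins, and CCN2 is a known target of both routes. Messenger RNA levels do not report where the YAP and TAZ proteins were in the cell.

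Values are intensities in arbitrary units, and a gene is represented by its brightest probe set unless another is named. A difference is given on the log2 scale, where 1 is 2-fold, and 2-fold was the size that counted as passed. With 1 array per group there is no replicate check and no p-value, and each difference compares 2 arrays. The share of all kept genes whose arrays separate fully by label or by treatment was not counted. Each such separation below is therefore a description only, with no background beside it. A gene was kept if its highest value reached 0.38, the median of all values. All 10 genes were among the 13136 kept, and 22 of their 24 probe sets reached that level.

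Of 5 DLC1 probe sets, the brightest, 210762_s_at, read 3.64 in the DLC1-labelled array with TGF-beta, 3.38 in that without it, 2.51 in the vector array with TGF-beta and 1.77 in that without it, while another, 224822_at, read 1.69 and 1.44 in the DLC1-labelled arrays and 2.41 and 1.79 in the vector arrays, in the same order. The 5 probe sets disagreed in direction, so DLC1 mRNA does not check the labels, and every direction below follows the labels alone. VIM read 160 to 205, CD44 56.3 to 84.1, KRT18 56.8 to 65.1 and KRT8 6.25 to 8.06. Of 7 luminal and epithelial markers, 5 passed the filter. CDH1 and PGR stayed at or under 0.31 and 0.11, below the filter on every array, and ESR1 reached 0.46, while EPCAM read 5.76 to 7.45, GATA3 3 to 4.59 and ERBB2 1.82 to 2.29. KRT19 moved with the labels, at 16.6 with TGF-beta and 16.5 without it in the DLC1-labelled arrays, and 11.6 with TGF-beta and 11.2 without it in the vector arrays, log2 differences of 0.51 and 0.55. The summed level of the 7 was 28.5 and 29.1 in the DLC1-labelled arrays and 23.7 and 25.9 in the vector arrays, with and without TGF-beta. Of 10 measured markers of leukocytes, endothelial cells and fibroblasts, 3 passed the filter, the highest at 1.67. The gap between the 3' and 5' control probe sets, a sign of RNA quality, was 2.83 to 3.26 for beta-actin on the log2 scale, a range of 0.43. Its lowest value was in the vector array with TGF-beta and its highest in the vector array without it. For GAPDH the gap was 0.35 to 0.39, a range of 0.04. The part of these in the differences below was not tested, and fewer cells of a kind cannot be told apart from less RNA per cell.

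The promoters of 4 genes are shown: CCN2, which had the biggest difference with TGF-beta, ANKRD1 and LATS2, the highest between the labels, and AMOTL1, the lowest between the labels without TGF-beta. Each window runs from 250 bases before the annotated start to 49 bases after its first base, in RefSeq's GRCh38.p14, written 5' to 3' on the gene's own strand, with the TEAD motif GGAATG, or CATTCC on the other strand, in capitals.
CCN2, chr6:131951323-131951622, minus strand: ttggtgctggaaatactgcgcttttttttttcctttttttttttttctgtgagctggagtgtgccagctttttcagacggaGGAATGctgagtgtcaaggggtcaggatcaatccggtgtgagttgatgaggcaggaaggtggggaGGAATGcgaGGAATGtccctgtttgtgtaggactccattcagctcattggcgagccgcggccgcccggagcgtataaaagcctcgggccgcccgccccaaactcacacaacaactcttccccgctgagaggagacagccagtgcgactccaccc
ANKRD1, chr10:90921038-90921337, minus strand: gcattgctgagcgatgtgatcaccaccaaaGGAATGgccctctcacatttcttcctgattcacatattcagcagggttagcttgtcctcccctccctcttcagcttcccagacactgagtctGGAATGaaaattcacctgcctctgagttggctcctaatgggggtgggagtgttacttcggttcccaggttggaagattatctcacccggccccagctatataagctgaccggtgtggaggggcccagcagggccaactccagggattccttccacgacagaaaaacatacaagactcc
LATS2, chr13:21061537-21061836, minus strand: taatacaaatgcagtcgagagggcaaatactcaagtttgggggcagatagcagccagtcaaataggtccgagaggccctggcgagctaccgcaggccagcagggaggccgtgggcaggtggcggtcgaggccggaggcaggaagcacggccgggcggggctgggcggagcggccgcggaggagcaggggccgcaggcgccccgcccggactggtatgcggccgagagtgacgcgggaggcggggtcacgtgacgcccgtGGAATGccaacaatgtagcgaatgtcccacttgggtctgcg
AMOTL1, chr11:94768106-94768405, plus strand: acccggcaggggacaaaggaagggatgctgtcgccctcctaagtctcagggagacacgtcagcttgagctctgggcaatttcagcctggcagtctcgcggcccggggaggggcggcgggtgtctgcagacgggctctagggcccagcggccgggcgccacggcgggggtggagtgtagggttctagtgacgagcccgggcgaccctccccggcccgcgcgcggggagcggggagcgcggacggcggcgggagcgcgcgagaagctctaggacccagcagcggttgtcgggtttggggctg
The CCN2 window holds 3 copies of the motif, ANKRD1 holds 2, LATS2 holds 1 just after the start, and AMOTL1 holds none, which says only that these letters are not in its window.

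Promoter windows were found for 8 of the 10 genes, 11 windows in all. The TEAD motif was present in 6 of the 11 windows, against 14.0% of 35116 windows of all genes, and 3 or more copies were present in 0.128% of all windows. With the start as 0, the CCN2 copies begin at -169, -104 and -95. The SMAD-type motif CAGAC, or GTCTG on the other strand, was present in 8 of the 11 windows, against 45.3% of all windows, and its CCN2 copy begins at -177. In ANKRD1, where TEAD copies begin at -220 and -128, the second overlaps a GTCTG by 1 base. These are matches of letters, not binding sites, and the 10 genes include targets that are known for such sites.

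**Figure D1:**
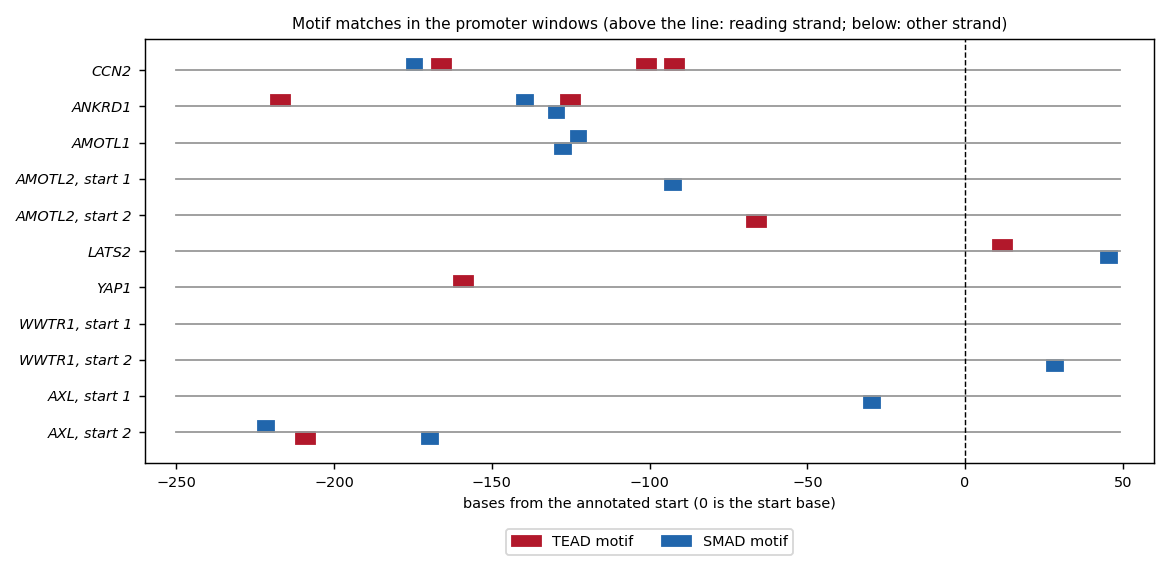
Positions of TEAD (red) and SMAD-type (blue) motif matches in the 11 promoter windows, in bases from the annotated start, drawn above the line on the gene's own strand and below it on the other. The CCN2 window holds 3 TEAD matches and 1 SMAD-type match, and the AMOTL1 window holds no TEAD match.

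CCN2 was the member that stood out with TGF-beta. It encodes a secreted matricellular protein, connective tissue growth factor. Its only probe set read 104 with TGF-beta and 52.8 without it in the DLC1-labelled arrays. In the vector arrays it read 149 with TGF-beta and 74.6 without it. Both arrays with TGF-beta therefore lay above both arrays without it. The ratios were 1.97-fold and 1.99-fold, log2 differences of 0.977 in the DLC1-labelled arrays and 0.996 in the vector arrays, just short of 2-fold in each. Of the kept genes, 0.830% were as far or farther in that direction in the DLC1-labelled arrays and 1.22% in the vector arrays. The difference of these differences was -0.02.

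The DLC1-labelled arrays lay below the vector arrays for CCN2 in both states. The log2 difference was -0.50 without TGF-beta and -0.52 with it, ratios of 0.708 and 0.699. With housekeeping centring these were -0.26 and -0.47, and the difference of the differences was -0.22. The DLC1-labelled array with TGF-beta, at 104, still lay above the untreated vector array, at 74.6. Among the kept genes, 11.5% were as far below 0 without TGF-beta and 8.68% with it, so these differences are of a size that many genes reached.

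CCN2 was also the only one of the 10 whose values spanned 2-fold or more over the 4 arrays, at 1.49 on the log2 scale. Its pattern was matched most closely by CHST3, SH3KBP1 and CHST11, at Euclidean distances of 0.06, 0.08 and 0.10 from CCN2 between the 4 log2 values, each gene centred on its own mean. CHST3 read 3.08 and 4.49 with TGF-beta in the DLC1-labelled and vector arrays, and 1.51 and 2.20 without it. With 4 arrays such likeness is a description only.

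CCN1, the close relative that encodes CYR61 and is a textbook YAP target, showed little of this. Its brightest probe set, 201289_at, read 87.6 with TGF-beta and 94.9 without it in the DLC1-labelled arrays. It read 96.5 with TGF-beta and 102 without it in the vector arrays. The 4 values span 0.22 on the log2 scale, and all 4 differences lay between -0.14 and -0.08, although that without TGF-beta between labels and that with TGF-beta in vector cells turned positive, at 0.14 and 0.15, with housekeeping centring and, at 0.02 and 0.06, with the mean of both probe sets. The other probe set, 210764_s_at, read 42.9 and 48.0 in the DLC1-labelled arrays with and without TGF-beta, and 49.7 and 43.7 in the vector arrays. Its difference with TGF-beta was -0.16 in the DLC1-labelled arrays and 0.19 in the vector arrays. Between the labels it gave 0.14 without TGF-beta and -0.21 with it. The probe sets of CCN1 thus shared a direction with TGF-beta in the DLC1-labelled arrays and between the labels with TGF-beta, and had opposite signs in the other pairs.

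ANKRD1, which encodes a nuclear ankyrin repeat protein of muscle and is a sensitive YAP target, went the opposite way to CCN2 between the labels. It read 51.1 with TGF-beta and 48.1 without it in the DLC1-labelled arrays, and 33.1 with TGF-beta and 33.1 without it in the vector arrays. Both DLC1-labelled arrays were above both vector arrays. The ratio was 1.46 without TGF-beta and 1.55 with it, log2 differences of 0.54 and 0.63, which 6.78% and 5.05% of kept genes matched or passed in that direction. With TGF-beta the differences were 0.09 in the DLC1-labelled arrays and 0.00 in the vector arrays. ANKRD1 has a single probe set on the array, so its values have no second measurement.

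AXL encodes a receptor tyrosine kinase that binds GAS6. Probe set 202686_s_at read 64.6 with TGF-beta and 64.8 without it in the DLC1-labelled arrays, and 75.6 with TGF-beta and 80.9 without it in the vector arrays. Both DLC1-labelled arrays were lower, with log2 differences of -0.32 without TGF-beta and -0.23 with it. Of kept genes, 20.8% and 25.2% were as far or farther in that direction. The dimmer 202685_s_at read 2.18 and 2.32 in the DLC1-labelled arrays and 2.93 and 3.43 in the vector arrays, with and without TGF-beta in each, and gave -0.56 in the untreated pair and -0.43 in the TGF-beta pair. Both probe sets of AXL therefore shared the direction, at sizes well within 2-fold. With housekeeping centring 202686_s_at gave -0.08 without TGF-beta and -0.18 with it.

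**Figure D2:**
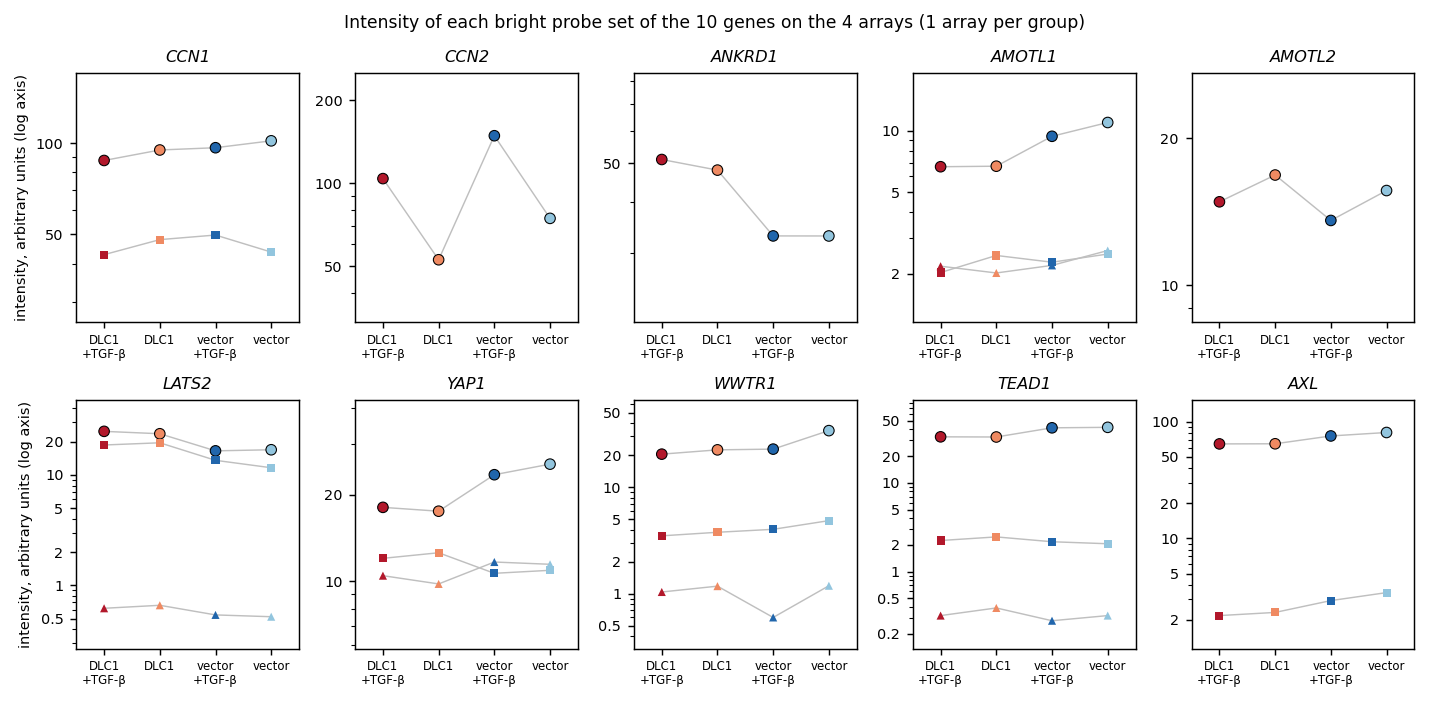
Intensity of each probe set that reached the median of all values, on a log axis in arbitrary units, for the DLC1-labelled array with TGF-beta, the DLC1-labelled array without it, the vector array with TGF-beta and the vector array without it. Circles with black edges mark the brightest probe set of a gene and lines join the values of one probe set. CCN2 is highest in the 2 arrays with TGF-beta. In the 2 DLC1-labelled arrays ANKRD1 and LATS2 are higher and the brightest probe set of AMOTL1 is lower.

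LATS2 encodes the kinase that phosphorylates YAP and TAZ. Its brightest probe set, 227013_at, read 24.8 with TGF-beta and 23.6 without it in the DLC1-labelled arrays, and 16.5 with TGF-beta and 16.9 without it in the vector arrays. The second, 223380_s_at, read 18.7 with TGF-beta and 19.5 without it in the DLC1-labelled arrays, and 13.6 with TGF-beta and 11.6 without it in the vector arrays. In both, each DLC1-labelled array was above each vector array. The brightest gave log2 differences of 0.48 in the untreated pair and 0.59 in the TGF-beta pair, and the second gave 0.75 and 0.46. Of kept genes, 8.47% and 5.82% were as far above 0 as the brightest or farther. The dim 223379_s_at gave 0.34 and 0.20, and 230348_at, below the filter on every array, gave 0.28 and 0.54, so all 4 probe sets of LATS2 were higher in both states. With TGF-beta, 227013_at differed by 0.07 in the DLC1-labelled arrays and by -0.03 in the vector arrays, a sign that turned with housekeeping centring.

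The angiomotin-like scaffolds, which bind YAP and keep it at junctions and actin, parted from each other. AMOTL1 read 6.68 with TGF-beta and 6.72 without it in the DLC1-labelled arrays, and 9.41 with TGF-beta and 10.99 without it in the vector arrays. Both DLC1-labelled arrays were lower, by log2 differences of -0.71 without TGF-beta and -0.49 with it. Of kept genes, 5.82% and 9.52% were as far or farther in that direction. Its other probe sets above the filter gave smaller values, -0.02 and -0.17 for 225459_at and -0.36 and -0.01 for 228840_at, so the size rests on 225450_at. AMOTL2 read 14.8 with TGF-beta and 16.8 without it in the DLC1-labelled arrays, and 13.6 with TGF-beta and 15.6 without it in the vector arrays. AMOTL2 was therefore slightly higher in the DLC1-labelled arrays, by 0.11 and 0.13, and slightly lower with TGF-beta, by -0.18 in the DLC1-labelled arrays and -0.20 in the vector arrays, the last of which turned to 0.03 with housekeeping centring.

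YAP1 encodes the first of the coactivators. Probe set 224894_at read 18.1 with TGF-beta and 17.5 without it in the DLC1-labelled arrays, and 23.5 with TGF-beta and 25.6 without it in the vector arrays. Its log2 differences between the labels were -0.54 without TGF-beta and -0.38 with it. The other probe sets did not share their size. In the same direction 224895_at gave -0.23 and -0.16, while 213342_at gave 0.20 and 0.17, in the opposite direction. With TGF-beta all 3 lay between -0.12 and 0.10 in both kinds of cells. The direction for YAP1 between the labels thus depends on the probe set.

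WWTR1 gave the lowest difference with TGF-beta among the 10 genes in the vector arrays, where AMOTL2 was the lowest in the DLC1-labelled arrays. Probe set 202133_at read 20.5 with TGF-beta and 22.4 without it in the DLC1-labelled arrays, and 22.8 with TGF-beta and 34 without it in the vector arrays. The untreated vector array was the highest of the 4 and the others lay close together. The log2 difference with TGF-beta was -0.13 in the DLC1-labelled arrays and -0.58 in the vector arrays, a difference of 0.44 between them that 4.34% of kept genes matched or passed. The second probe set, 202132_at, gave -0.11 and -0.27. The dim 202134_s_at gave -0.18 and -0.99, and in the vector arrays it read 0.60 with TGF-beta and 1.19 without it. All 3 probe sets were lower with TGF-beta in both kinds of cells. Between the labels, 202133_at gave -0.60 without TGF-beta and -0.16 with it, and the mean of the 3 probe sets turned the second to 0.14.

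TEAD1 encodes a DNA-binding partner of both coactivators. Probe set 224955_at read 32.9 with TGF-beta and 32.8 without it in the DLC1-labelled arrays, and 41.6 with TGF-beta and 42.1 without it in the vector arrays. Between the labels its log2 differences were -0.36 without TGF-beta and -0.34 with it. Of kept genes, 18.1% and 16.9% were as far or farther in that direction. With housekeeping centring the differences were -0.12 without TGF-beta and -0.29 with it. The dimmer 214600_at gave 0.26 and 0.05 and 1553322_s_at gave 0.29 and 0.19, in the opposite direction. With TGF-beta, 224955_at differed by 0.01 in the DLC1-labelled arrays and by -0.02 in the vector arrays, and here too the second sign turned with housekeeping centring. With the mean of probe sets the TGF-beta difference in the DLC1-labelled arrays turned to -0.14, and that between the labels without TGF-beta turned to 0.06.

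**Figure D3:**
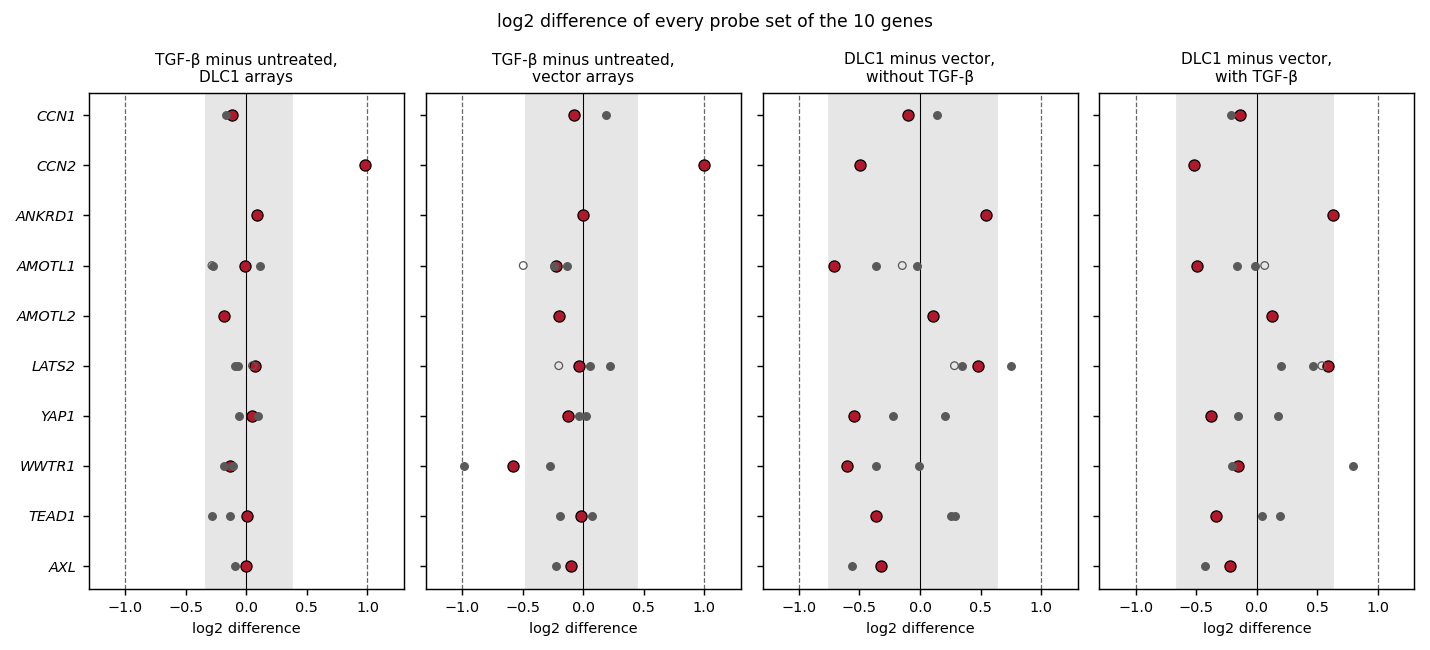
log2 difference of all 24 probe sets in the 4 comparisons; large red points are the brightest probe set of each gene, open points lie below the filter, the grey band holds the middle 90% of kept genes and dashed lines mark 2-fold. CCN2 lies at 0.977 and 0.996 with TGF-beta, and the probe sets of YAP1 and TEAD1 fall on both sides of 0 between the labels.

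Counted together, 0 of the 10 genes passed 2-fold with TGF-beta in the DLC1-labelled arrays, where 0.898% of the kept genes did, and 0 passed in the vector arrays, where 1.9% did. Between the DLC1-labelled and vector arrays, 0 of 10 passed without TGF-beta, where 3.97% of the kept genes did, and 0 passed with TGF-beta, where 3.11% did. For the difference of the differences with TGF-beta, 0 passed, where 0.365% did. These counts are near the background, and of the 10 genes CCN2 alone passed with housekeeping centring, by 1.01 in the DLC1-labelled arrays and 1.23 in the vector arrays.

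At the lower size of 1.5-fold, CCN2 passed with TGF-beta, 1 of 10 in the DLC1-labelled arrays, where 3.37% of kept genes did. It was also 1 of 10 in the vector arrays, where 6.05% did. WWTR1 joined it there at -0.61 with the mean of probe sets and at -0.59 with quantile normalization. Between the labels without TGF-beta 2 of 10 passed, AMOTL1 and WWTR1, both lower, where 14.7% did in either direction. With housekeeping centring neither reached 1.5-fold, at -0.47 and -0.36, and ANKRD1 and LATS2 did instead, higher by 0.78 and 0.72. With the mean of probe sets none did, and with quantile normalization WWTR1, at -0.57, did not. Between the labels with TGF-beta 2 of 10 passed, ANKRD1 and LATS2, both higher, where 12.6% did. LATS2 did not pass with the mean of probe sets, at 0.45, or with an offset of 0.25, at 0.58. For the difference of the differences 0 of 10 passed, where 3.08% did.

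The median difference with TGF-beta over the 10 genes was 0.00 in the DLC1-labelled arrays, beside -0.01 over all kept genes, and -0.09 in the vector arrays, beside -0.03. Between the labels the median was -0.34 without TGF-beta, beside -0.03 over all kept genes, and -0.19 with TGF-beta, beside -0.02. In both states 7 of 10 lay below the median of the kept genes. Taking the mean of each gene's probe sets brought the medians to -0.09 and -0.08, with 5 of 10 below it without TGF-beta and 6 of 10 with it. Centring on housekeeping genes moved the median of all kept genes to 0.20 with TGF-beta in vector cells and to 0.21 between the labels without TGF-beta, and the 7 of 10 relative to the median of the kept genes do not move with such a shift.

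**Figure D4:**
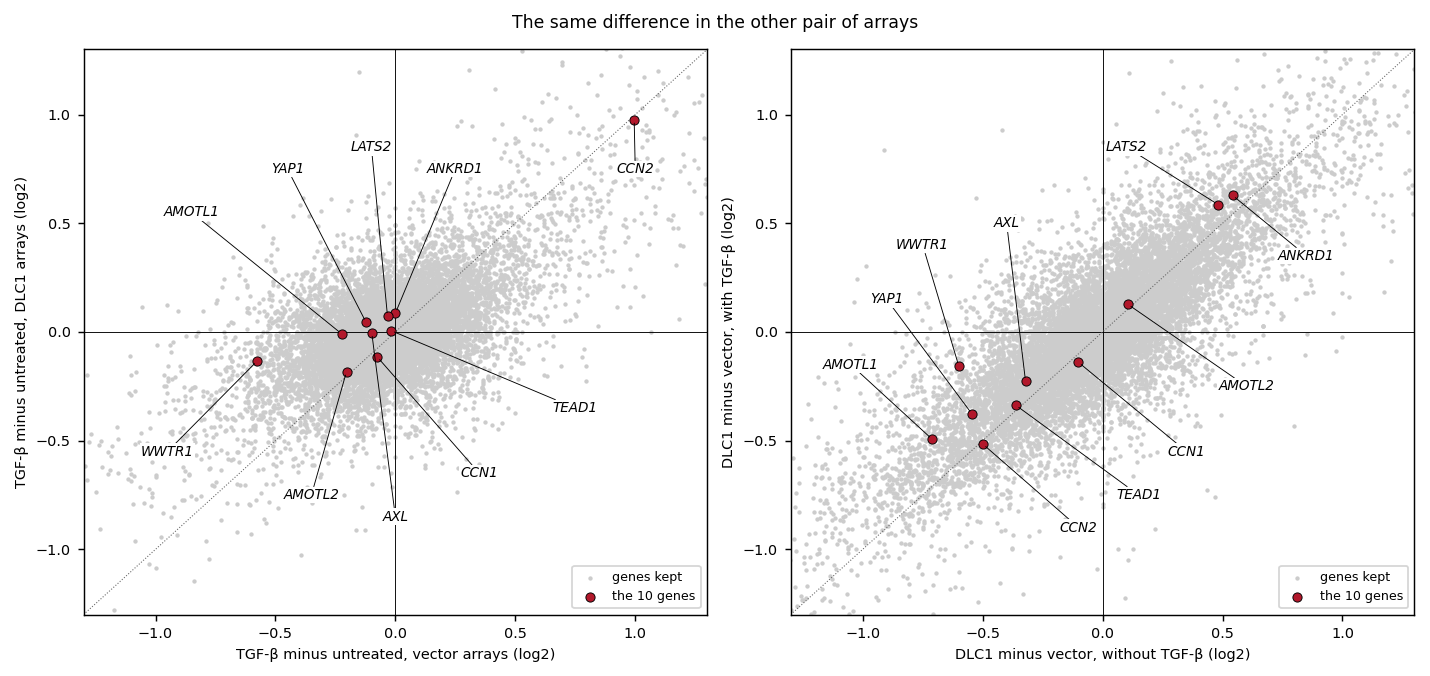
Left, log2 difference with TGF-beta in the DLC1-labelled arrays against that in the vector arrays; right, log2 difference between the DLC1-labelled and vector arrays with TGF-beta against that without it. Grey points are kept genes within the axes and red points are the 10 genes; CCN2 lies at 0.977 and 0.996 on the left, and ANKRD1 and LATS2 lie above 0 on both axes on the right.

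Other genes of the pathway were described from lists, beside shares of all kept genes past 2-fold. With TGF-beta 0.792% were higher and 0.107% lower in the DLC1-labelled arrays, and 1.21% higher and 0.693% lower in the vector arrays. Between the labels 1.63% were higher and 2.34% lower without TGF-beta, and 1.46% higher and 1.64% lower with it. Of 10 further TEADs and nuclear partners, 8 were measured and 6 kept. VGLL3, a vestigial-like cofactor that binds TEADs, read 5.43 with TGF-beta and 2.14 without it in the DLC1-labelled arrays. In the vector arrays VGLL3 read 9.10 with TGF-beta and 2.15 without it. It rose by 1.34 and 2.08 on the log2 scale, and its other probe set by 1.39 and 2.19. That set is dim. Without TGF-beta it read 0.32 in the DLC1-labelled array and 0.39 in the vector array, around the filter level, so its sizes are uncertain. VGLL3 was the 1 gene of this list past 2-fold in either kind of cell, with list medians of 0.23 in the DLC1-labelled arrays and 0.07 in the vector arrays, beside -0.01 and -0.03 over all kept genes. With no filter the list medians were 0.04 and -0.06, so the second turned, and with housekeeping centring the second was 0.30, where all kept genes had 0.20.

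The other TEADs and cofactors differed less. With TGF-beta, TEAD3 gave 0.34 in the DLC1-labelled arrays and 0.26 in the vector arrays, and VGLL4, a repressive TEAD cofactor, gave 0.36 and 0.28. RUNX2, a bone transcription factor that binds YAP and TAZ, read 3.75 with TGF-beta and 3.47 without it in the DLC1-labelled arrays, and 3.90 with TGF-beta and 5.97 without it in the vector arrays. RUNX2 thus resembled WWTR1 in that the untreated vector array was the highest. Between the labels 0 of 6 passed 2-fold in either state, where RUNX2 gave -0.78 without TGF-beta and VGLL3 gave -0.74 with it. The other VGLL3 probe set, the dim one, gave -1.08 with TGF-beta, past 2-fold, at 0.84 in the DLC1-labelled array and 1.78 in the vector array. VGLL4 gave 0.48 without TGF-beta and 0.55 with it, TEAD4 gave -0.34 and -0.33, and TEAD2 gave -0.32 and -0.21. The direction for TEAD2 depends on the probe set, since the next brightest gave 0.34 and 0.16.

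Of 27 Hippo kinases, scaffolds and upstream genes, all were measured and 25 kept. With TGF-beta 0 of 25 passed 2-fold in the DLC1-labelled arrays and 1 fell in the vector arrays, with medians of 0.03 and -0.03, the second at 0.20 with housekeeping centring, as for all kept genes. That gene was FAT4, an atypical cadherin, which read 1.11 with TGF-beta and 1.85 without it in the DLC1-labelled arrays, and 1.42 with TGF-beta and 3.37 without it in the vector arrays, log2 differences of -0.74 and -1.25. FRMD6, a FERM protein upstream of the kinases, gave 0.71 in the DLC1-labelled arrays and 0.69 in the vector arrays, and FAT1 gave 0.40 and 0.50. AJUBA, a LIM protein that inhibits LATS, gave -0.18 and -0.53. LIMD1, of the same family, gave -0.35 and -0.37.

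Between the labels the Hippo list had 1 gene higher and 1 lower past 2-fold without TGF-beta, and 1 higher with it, with medians of -0.18 and -0.13, the first of which turned to 0.07 with housekeeping centring, where 3 genes were higher past 2-fold. With the mean of probe sets 2 were higher and 0 lower without TGF-beta, with a median of -0.04, and 2 were higher with it. DCHS1, a protocadherin ligand of FAT4, read 1.21 and 1.29 in the DLC1-labelled arrays with and without TGF-beta, and 0.26 and 0.23 in the vector arrays. The vector values lie below the filter, so the sizes of 2.22 and 2.49 are uncertain. The other DCHS1 probe set, below the filter on every array, gave -0.15 with TGF-beta and 0.66 without it. That probe set did not share the direction with TGF-beta and was short of 2-fold without it. The 1 gene counted as higher in each state thus depends on the probe set. TNIK, a kinase of the MAP4K family, fell by 1.27 in the untreated pair and differed by -0.83 in the TGF-beta pair, and FAT4 differed by -0.87 in the untreated pair. RASSF1, a scaffold of the MST kinases, gave 0.97 without TGF-beta and 0.77 with it.

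SAV1 encodes the scaffold that joins MST to LATS. It read 13.2 with TGF-beta and 14.2 without it in the DLC1-labelled arrays, and 8.06 with TGF-beta and 8.16 without it in the vector arrays. Its log2 difference was 0.80 without TGF-beta and 0.71 with it. The other 4 probe sets of SAV1 gave 0.88 to 1.37 without TGF-beta and 0.80 to 1.41 with it, so all 5 were higher in the DLC1-labelled arrays and the one used gave the smallest size.

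Of 31 other YAP and TAZ targets, 27 were measured and all 27 were kept. With TGF-beta 1 rose in the DLC1-labelled arrays, or 2 with housekeeping centring. In the vector arrays 2 rose, or 3 with housekeeping centring or the mean of probe sets, and 1, CCN3, fell. The medians were -0.03 and -0.10, beside -0.01 and -0.03 over all kept genes, and turned to 0.00 and 0.13 with housekeeping centring. EDN1, the endothelin gene, read 9.28 with TGF-beta and 4.68 without it in the DLC1-labelled arrays, and 32.0 with TGF-beta and 9.23 without it in the vector arrays. The log2 differences of EDN1 were 0.99 and 1.79. CCDC80, a secreted matrix protein gene, gave 0.79 in the DLC1-labelled arrays and rose by 1.25 in the vector arrays.

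THBS1, the thrombospondin gene, showed how far probe sets of one gene can part. The brightest set rose by 1.21 in the DLC1-labelled arrays and gave 0.31 in the vector arrays. The other 6 probe sets gave 1.07 to 1.75 in the vector arrays, so all of them passed 2-fold where the one used did not. TGFB2, which encodes a TGF-beta ligand, gave -0.71 in the DLC1-labelled arrays and -0.37 in the vector arrays. CDC42EP3, an effector of CDC42, gave -0.28 and -0.95.

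Between the labels without TGF-beta, 0 of the other targets rose and 2 fell, with 19 of 27 below 0. Of all kept genes, 45.3% lay above 0 in that pair, so the majority was not above 0 there either. With housekeeping centring 1 fell and 15 were below 0, with an offset of 0.25 1 fell, and with the mean of probe sets 1 rose and 2 fell. Between the labels with TGF-beta 0 rose and 4 fell, with 18 of 27 below 0, where 46.7% of all kept genes lay above 0. The medians were -0.36 and -0.35, beside -0.03 and -0.02 over all kept genes. They were -0.11 and -0.30 with housekeeping centring, and -0.21 and -0.13 over the mean of each gene's probe sets. In the untreated pair THBS1 fell by 1.68 and CCDC80 by 1.05. The value of THBS1 is the lowest of its 7 probe sets, since the other 6 gave -1.64 to -0.54, of which 2 passed 2-fold. In the TGF-beta pair the brightest THBS1 set gave -0.78 and did not pass, while the other 6 gave -1.53 to -0.78 and 4 of them passed. With TGF-beta EDN1, IGFBP3, CCDC80 and ADAMTS1 fell by 1.79, 1.55, 1.51 and 1.06. In the untreated pair EDN1 differed by -0.98 and ADAMTS1 by -0.97. The other EDN1 probe sets gave -1.11 and -1.08 there, and the other IGFBP3 set gave -1.01, all past 2-fold. The other CCDC80 sets gave -0.26 and -0.70 there and did not pass. The other ADAMTS1 set gave -0.62 there and -0.93 with TGF-beta, short of 2-fold in both. The counts of 2 and 4 that fell thus depend on the probe set. IGFBP3, an IGF-binding protein gene, read 15.4 with TGF-beta and 14.8 without it in the DLC1-labelled arrays, and 44.9 with TGF-beta and 27.1 without it in the vector arrays. Of these targets, THBS1, IGFBP3, EDN1, ADAMTS1 and TGFB2 are known to answer TGF-beta or other signals as well.

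**Figure D5:**
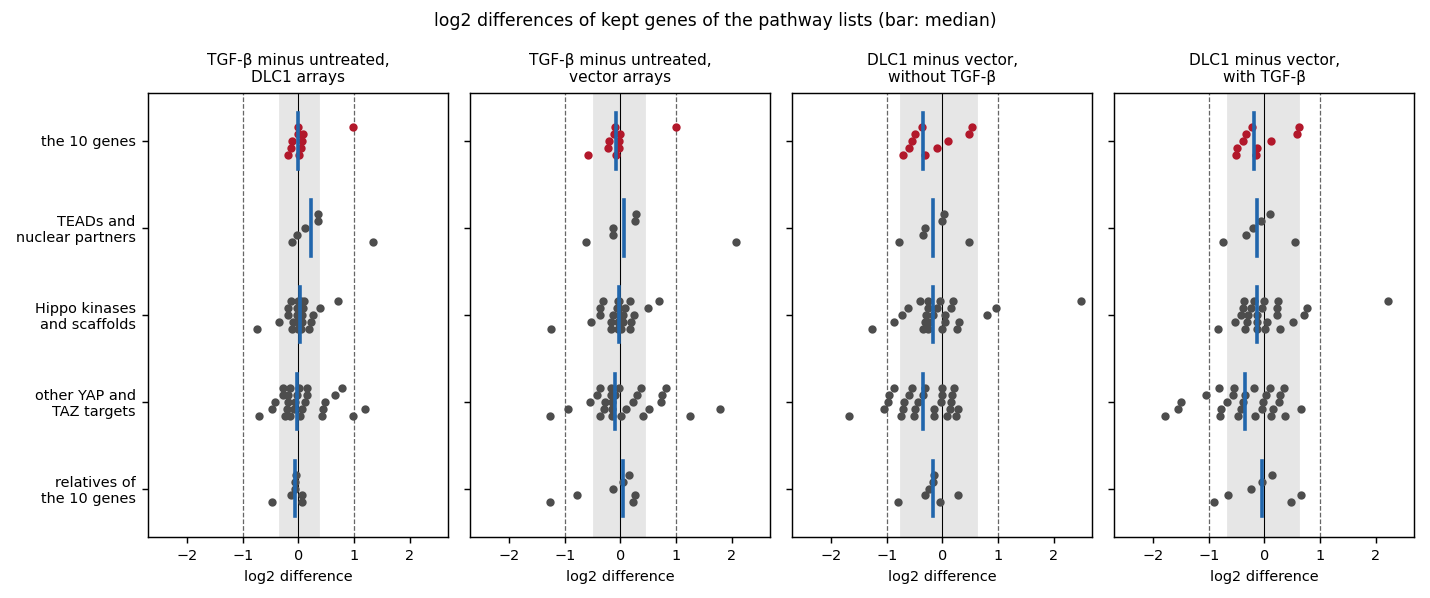
log2 differences of the kept genes of each pathway list in the 4 comparisons, with the list's median as a blue bar, the middle 90% of all kept genes as a grey band and 2-fold as dashed lines. The median of the other YAP and TAZ targets is -0.36 between the labels without TGF-beta and -0.35 with it, and VGLL3 is the point at 1.34 and 2.08 among the TEADs and nuclear partners with TGF-beta.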

How the data were processed

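Expression was measured on 1 array for each of 4 groups, grouped by their labels. The authors deposited intensities on a linear scale for 54675 probe sets; the submitters' processing notes name RMA but no version, and the divisor of the scale is not given in the sources used here. The values run from 0.05 to 265.58, and the sorted arrays, above their medians, differ by a median of 0.03 on the log2 scale, so a shift common to the majority of genes cannot be read from them. Rounding makes ratios of dim values coarse.

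The platform annotation supplied for the series gives 41097 probe sets exactly 1 symbol, 1801 several and 11777 none. A gene was its probe set with the highest mean, and was kept if its highest value reached 0.38. Differences were taken after log2, with no offset, in pandas 2.3.3 and numpy 2.4.6 under Python 3.11.15, with figures in matplotlib 3.10.9. The count past 2-fold was tested on simulated data. Promoters are RefSeq's (GRCh38.p14).

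The 10 genes and the lists were chosen with earlier results of these data known. Named were all 10 genes, the 4 biggest differences of each list per comparison, the 3 nearest patterns of a gene spanning 1 or more on the log2 scale, and, after their values were seen, the probe sets of a gene other than its brightest. The alternatives were the mean of a gene's probe sets, no filter, a filter on the mean, an offset of 0.25, housekeeping centring, quantile normalization and 1.5-fold. The number of arrays limits the precision.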

Additional observations from a re-analysis of the deposited data

Results flagged for a closer look

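With TGF-beta, 3 of the 10 genes gave differences of opposite sign in the DLC1-labelled and vector arrays. LATS2 gave 0.07 and -0.03, a gap of 0.11, YAP1 gave 0.04 and -0.12, a gap of 0.17, and TEAD1 gave 0.01 and -0.02, a gap of 0.024, all on the log2 scale. The vector differences of all 3 turned positive with housekeeping centring. With the mean of probe sets TEAD1 gave -0.14 and -0.05, no longer opposite in sign, and LATS2 gave -0.01 and 0.01, a gap of -0.02. CCN1 became opposite in sign there, at -0.14 and 0.06. With housekeeping centring CCN1, at -0.09 and 0.15, and AMOTL2, at -0.15 and 0.03, became opposite. With quantile normalization ANKRD1 did, at 0.07 and -0.01. These gaps were not tested, since each group has 1 array. The median size of this gap over all kept genes was 0.13. The share of kept genes with opposite signs was not counted, so the 3 of 10 has no background beside it. The median size of the TGF-beta difference itself was 0.11 in the DLC1-labelled arrays and 0.14 in the vector arrays. The other YAP1 probe sets were not opposite in sign, since 224895_at gave 0.10 and 0.03 and 213342_at gave -0.06 and -0.03. For LATS2 the order reversed, since 223380_s_at gave -0.07 and 0.22, a gap of -0.29, and 223379_s_at gave -0.09 and 0.05. For TEAD1, 214600_at also reversed it, at -0.14 and 0.08, a gap of -0.21. The direction of these gaps thus depends on the probe set.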

How the results depend on the processing

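The count of the 10 genes past 2-fold was 0 in every comparison as reported. With 1.5-fold it became 1 with TGF-beta in the DLC1-labelled arrays, 1 with TGF-beta in the vector arrays, 2 between the labels without TGF-beta and 2 with it. With housekeeping centring it became 1 with TGF-beta in the DLC1-labelled arrays and 1 in the vector arrays, in each case CCN2. With housekeeping centring the median over the 10 genes became 0.14 with TGF-beta in the vector arrays, against -0.09 as reported, and -0.10 between the labels without TGF-beta, against -0.34. That shift is the one in the median of all kept genes. With the mean of each gene's probe sets it became -0.086 between the labels without TGF-beta and -0.077 with it, against -0.34 and -0.19. Of 50 single differences under each alternative, 31 moved by 0.1 or more on the log2 scale or crossed 2-fold with housekeeping centring and 18 with the mean of probe sets, and 0 did so with no filter, a filter on the mean, an offset of 0.25 or quantile normalization. The sign turned for 16, 9, 0, 0, 0 and 1 of them, in the same order. No paired analysis was possible because each group holds 1 array, and for the same reason no array could be left out. Depth is limited here by dim signal, as for DCHS1 in the vector arrays.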

Other observations

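Relatives of the 10 genes gave further values. CCN3, a member of the CCN family, read 21.6 with TGF-beta and 30.0 without it in the DLC1-labelled arrays, and 13.8 with TGF-beta and 33.2 without it in the vector arrays. The log2 difference was -0.47 in the DLC1-labelled arrays and -1.27, past 2-fold, in the vector arrays, while CCN2 was higher with TGF-beta in both. The other probe set of CCN3 gave -0.42 and -1.07. MERTK, a receptor kinase of the AXL family, read 2.18 with TGF-beta and 2.39 without it in the DLC1-labelled arrays, and 1.56 with TGF-beta and 2.69 without it in the vector arrays, so that the vector array with TGF-beta was the lowest.

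The ligands of the AXL family parted between the labels. PROS1, which encodes protein S, read 5.89 with TGF-beta and 6.13 without it in the DLC1-labelled arrays, and 11.1 with TGF-beta and 10.7 without it in the vector arrays, log2 differences of -0.91 and -0.81. GAS6, the ligand that AXL binds, gave 0.13 with TGF-beta and 0.29 without it. TYRO3, the third receptor of the family, gave -0.65 and -0.31. LATS1, the other LATS kinase, gave -0.03 and -0.24, while LATS2 was higher in every probe set. Of the 12 relatives, 7 were kept, and CCN3 was the 1 that passed 2-fold in any of the 4 comparisons.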
